A study of Mus musculus with 6 samples.

Results

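The genes described here are 10 neuronal genes that act on microtubules or in the growth cone, out of 19938 genes measured: the doublecortin family genes *Dcx*, *Dclk1* and *Dclk2*, the microtubule-associated protein genes *Map1a*, *Map1b*, *Map2* and *Mapt*, the stathmin genes *Stmn2* and *Stmn3*, and the growth cone gene *Gap43*. They were chosen by name as a group of related function, with earlier results of these data known, and matched to the array by gene symbol, and the transcript cluster (the set of probes that stands for 1 gene) with the highest mean over the arrays was kept where a gene had several. All 10 were found, 9 of them with 1 cluster. Their RNA was measured in N2A (Neuro 2A), a neuroblastoma line from the mouse. The cultures received 1.5 µg of shRNA vector by transient transfection, either non-targeting (control, n = 3) or directed against *Paupar* (knockdown, n = 3), and total RNA was taken 2.5 days later for 1 whole-transcript array each. *Paupar* is a long noncoding RNA transcribed upstream of *Pax6*, a transcription factor gene of the developing eye and brain. The study calls the arrays of a group biological replicates. No step that separates transfected from untransfected cells is described, so each value is an average over the culture, in which fewer cells that express a gene and less RNA per cell cannot be told apart. *Paupar* itself has no named cluster in the annotation used, so the depth of the knockdown was not analysed here.

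Microtubules are polymers of tubulin that grow and shrink at their ends, and a neuron needs them both stable, in the shaft of its processes, and dynamic, in the growth cone at the tip. Doublecortin binds along the microtubule wall and stabilises it in migrating young neurons, and the doublecortin-like kinases join the same binding domains to a kinase domain related to that of calcium/calmodulin-dependent kinases. The MAP1 proteins, MAP2 and tau bind the microtubule lattice, MAP2 mainly in dendrites and tau mainly in axons. Stathmins bind free tubulin and favour disassembly, and GAP43 sits at the inner face of the growth cone membrane. Together these genes are standard markers of neurons that extend neurites, which is why they bear on a comparison made to ask what *Paupar* does in neural growth and differentiation.

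The hairpin with which the study measured its knockdown of *Paupar* in this line, sh408, carries the antisense stretch printed below, shown because it is the agent of the treatment. The study refers to that measurement for the transient knockdown profiled on the arrays, and the labels do not repeat the hairpin's name.
sh408 antisense: catattgtgactgctcttc

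RefSeq (GRCm38.p6) windows before the start site were matched for 7 of the 10 genes. *Mapt*, *Stmn2* and *Gap43* were not matched. The windows below belong to the 3 genes whose knockdown arrays all lay below their control arrays (*Dclk1*, *Map1a* and *Map1b*), and hold the bases up to 250 before the start, without any that lie past the outermost annotated start of the gene. *Dclk1* has 2 start sites in this table, 219364 bases apart, and the second, which lies inside the gene, keeps its whole window. Capitals mark 4 textbook promoter elements searched on both strands: the GC box GGGCGG, the CCAAT box CCAAT, the TATA box TATAAA and the AP-1 site TGANTCA.
Dclk1, first start, + strand, chr3:55242114-55242302: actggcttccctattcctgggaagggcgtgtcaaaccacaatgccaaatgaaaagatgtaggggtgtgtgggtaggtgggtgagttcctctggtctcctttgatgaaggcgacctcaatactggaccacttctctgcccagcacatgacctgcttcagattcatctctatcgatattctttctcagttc
Dclk1, second start, + strand, chr3:55461478-55461727: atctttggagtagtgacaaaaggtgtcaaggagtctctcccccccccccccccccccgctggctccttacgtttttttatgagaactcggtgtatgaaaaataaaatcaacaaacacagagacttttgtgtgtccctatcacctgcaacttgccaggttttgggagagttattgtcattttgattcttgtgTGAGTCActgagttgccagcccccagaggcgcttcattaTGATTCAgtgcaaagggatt
Map1a, + strand, chr2:121289352-121289589: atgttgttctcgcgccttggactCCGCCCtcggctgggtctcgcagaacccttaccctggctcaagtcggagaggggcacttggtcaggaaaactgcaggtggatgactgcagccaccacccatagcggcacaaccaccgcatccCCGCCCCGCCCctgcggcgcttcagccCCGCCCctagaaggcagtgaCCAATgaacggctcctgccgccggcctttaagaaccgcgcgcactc
Map1b, - strand, chr13:99516603-99516852: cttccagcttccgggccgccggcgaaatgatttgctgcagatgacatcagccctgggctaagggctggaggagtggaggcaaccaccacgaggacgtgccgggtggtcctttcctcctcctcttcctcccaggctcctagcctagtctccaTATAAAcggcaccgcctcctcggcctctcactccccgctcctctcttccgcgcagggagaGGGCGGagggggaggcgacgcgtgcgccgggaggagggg

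These windows did not look alike. Over the whole 250 bases, the second *Dclk1* start held 2 AP-1 letters, beginning 59 and 20 bases before the start, an element that 6.75% of all 32851 windows of this length hold at least once. The first *Dclk1* start held a CCAAT box 48 bases before the start (33.8% of all windows), in bases that are not printed because they lie past the outermost start. *Map1a* held 4 GC boxes (32.7% of windows hold one), 2 of which overlap by a base, and a CCAAT box, and *Map1b* held 1 GC box and 1 TATA box (12.4% of windows). GC content was 52.4% and 46.8% before the *Dclk1* starts and 66% and 66.4% for *Map1a* and *Map1b*, against a median of 52.4% over all windows. None of the 4 elements was common to the 3 genes. A match of letters is not a bound site, and the arrays cannot tell which *Dclk1* start was used, since 1 cluster covers the gene.

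Across the series, the deposited log2 values had medians between 7.85 and 7.92 per array over the named genes. A filter on variation kept 9969 genes, and 752 of them changed at a threshold of 0.05 on the limma p after Benjamini-Hochberg adjustment, 514 down and 238 up. Of 17 measured genes of a list of sympathetic and neuroblastoma markers, 15 stood above the 95th percentile of the olfactory receptor genes (6.73), which serve here as genes that these cells are not known to use. The neurofilament genes *Nefl* and *Nefm* did not. Of 17 markers of glia, fibroblasts, vessels and blood, 13 stood above that percentile as well, which makes it a loose bound. Only 8 of the 17 passed the variation filter, and none of those 8 passed the test. Of all genes tested, 5.16% fell and 2.39% rose, so this count is too small for a statement about the markers. As a mean over those 17 genes relative to the control mean (log2), the control arrays lay between -0.09 and 0.14 and the knockdown arrays between -0.02 and 0.08. The highest of each group were control replicate 1 and knockdown replicate 3, as for *Dclk1* below. That pattern was not particular to these markers. It held for 17.7% of all single genes and for some, not all, of the gene lists below, among them the growth cone and kinase lists. Their lowest change was that of *Pdgfrb*, a pericyte and fibroblast receptor, with 8.94 ± 0.59 in controls and 8.19 ± 0.45 in knockdowns, overlapping groups and an adjusted p of 0.0807. The part of these markers in the results below was not tested.

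Of the 10 genes, 1 passed the test, *Dclk1*, and it fell. No member rose. Of the 9969 genes tested across the array, 5.16% fell and 2.39% rose by the same rule, so 1 fall among the 7 members that passed the variation filter (*Dcx*, *Dclk1*, *Map1a*, *Map1b*, *Map2*, *Mapt* and *Stmn2*) is a small count on which no statement about the family can rest. *Dclk2*, *Stmn3* and *Gap43* varied too little to pass the filter and are given from a fit to all 19938 genes. In 9 of the 10 genes the knockdown mean was below the control mean, and the median change of the 10 was -0.21 on the log2 scale, beside 0.03 for all genes. For *Dclk1*, *Map1a* and *Map1b* each knockdown array lay below each control array, as was the case for 10.8% of all genes.

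**Figure D1:**
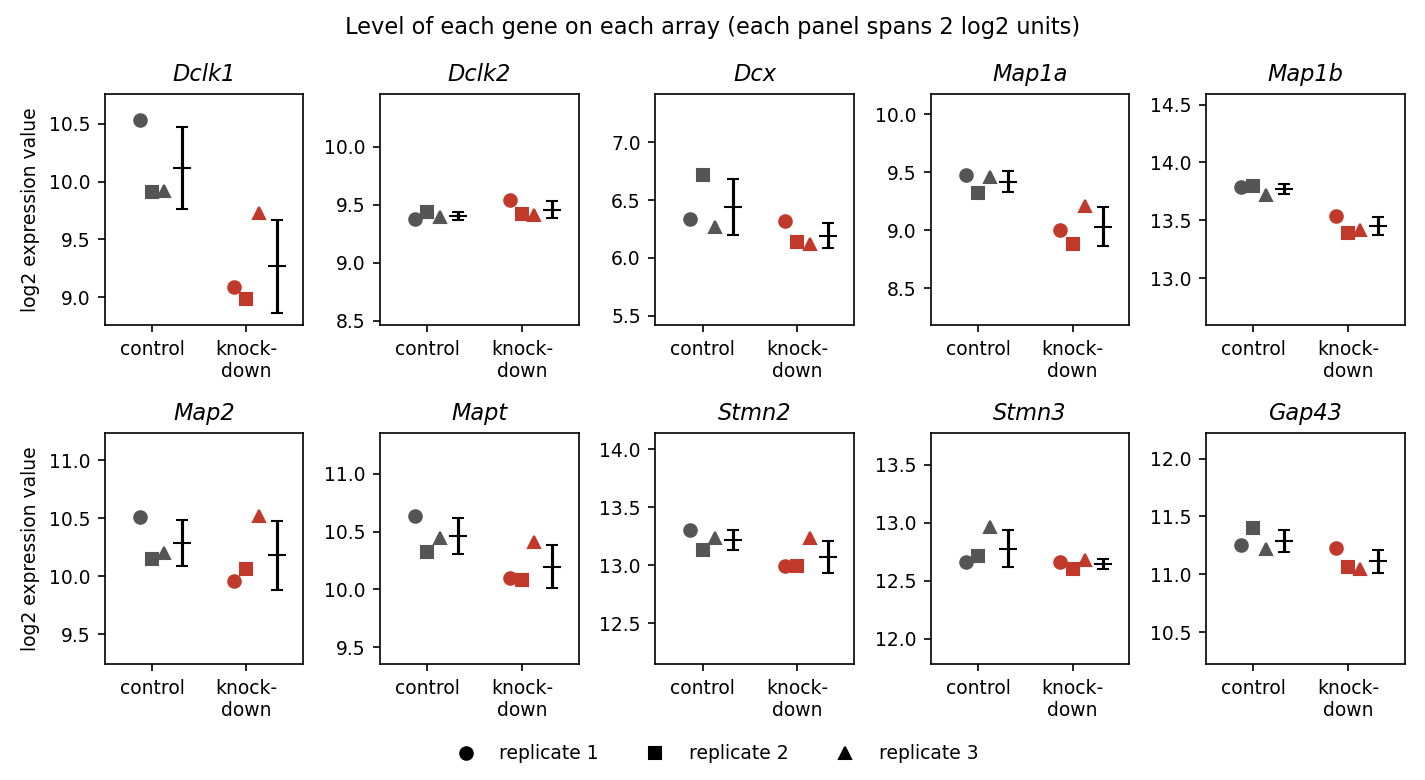
Deposited log2 value (y axis) of each of the 10 genes on the 3 control (grey) and 3 *Paupar* knockdown (red) arrays. Marker shapes give the replicate number, bars give the group mean and SD, and every panel spans 2 log2 units. The groups are separate for *Dclk1*, *Map1a* and *Map1b* and overlap for the other genes.

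*Dclk1*, the doublecortin-like kinase, was 1.80-fold lower upon *Paupar* knockdown. Its log2 values were 10.53, 9.91 and 9.92 on the control arrays and 9.09, 8.99 and 9.73 on the knockdown arrays (10.12 ± 0.35 against 9.27 ± 0.40, mean ± SD, n = 3 per group). Both groups were uneven: control replicate 1 stood above its fellows, and knockdown replicate 3 stood well above the other knockdown arrays and just under the lower controls. The difference was -0.85 (SE 0.20, 95% interval -1.27 to -0.43, limma, adjusted p = 0.0209), and 0.306% of all genes had a change at or below it. This SE rests on a variance that limma drew toward those of the other genes kept by the filter. The SE and the interval are therefore narrower than the SDs of *Dclk1* alone would give. The unadjusted limma p was 0.000616 in this fit and 0.0106 in a fit to all transcript clusters without the filter. An exact permutation test of this gene alone gave p = 0.1 (two-sided), the smallest that 3 arrays against 3 allow. Since every knockdown array lay below every control array, leaving out 1 array could not change the direction. The differences then lay between -1.08 and -0.65, and the call was not always kept. The adjusted p was 0.0947 when control replicate 1 was left out and 0.0833 for control replicate 3. It was 0.0669 when knockdown replicate 1 was left out and 0.101 for knockdown replicate 2. The call was kept when control replicate 2 (0.0109) or knockdown replicate 3 (0.00655) was left out.

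Its close relative *Dclk2*, which encodes the second doublecortin-like kinase, gave nearly one level on every array. Its log2 values were 9.38, 9.44 and 9.39 in controls and 9.54, 9.42 and 9.41 in knockdowns. The groups overlapped, and the difference of 0.05 had a 95% interval of -0.13 to 0.23 (limma, fit to all genes). This interval does not hold a difference of the size of that of *Dclk1* (-0.85). The interval of *Dclk1* comes from the filtered fit, so the bounds of these genes cannot be set against each other. Compared within each array, the log2 difference of *Dclk1* minus *Dclk2* was 1.15, 0.47 and 0.53 in controls and -0.45, -0.43 and 0.32 in knockdowns. The change of -0.90 is given as a description, since the pair was chosen after the values had been seen and *Dclk1* alone already separated the groups. With *Dclk2* nearly flat, it mostly restates *Dclk1*. For *Dclk1* minus *Dcx*, the other pair computed, the groups overlapped (change -0.60, exact permutation test, two-sided p = 0.2).

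*Dcx*, which encodes doublecortin itself, was measured near the floor of the array. Its log2 values were 6.34, 6.72 and 6.27 in controls and 6.32, 6.14 and 6.12 in knockdowns, and the mean of 6.32 was higher than that of 87.5% of 1027 olfactory receptor genes, 128 of which were at or above it. The other 9 members were above all of these receptors. The groups overlapped, with only control replicate 2 standing apart, and the difference of -0.25 (95% interval -0.54 to 0.04, limma, adjusted p = 0.25) did not pass the test.

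Among the MAP1 genes, *Map1a* and *Map1b* had the largest differences after *Dclk1*, and neither passed the test. The protein of *Map1a* binds microtubules mainly in mature neurons and that of *Map1b* in growing axons. *Map1a* had log2 values of 9.48, 9.32 and 9.46 in controls and 9.0, 8.88 and 9.21 in knockdowns. *Map1b* had 13.79, 13.80 and 13.72 in controls and 13.54, 13.39 and 13.42 in knockdowns. In both genes every knockdown array lay below every control array, and the spread within groups was small for *Map1b* (SD 0.05 and 0.08). For *Map1b*, limma drew the variance up toward that of other genes, so its SE of 0.11 is wider than this spread alone would give. The differences were -0.39 for *Map1a* (95% interval -0.66 to -0.12, limma, unadjusted p = 0.00741, adjusted p = 0.0713) and -0.32 for *Map1b* (-0.56 to -0.07, unadjusted p = 0.0151, adjusted p = 0.106), or 1.31-fold and 1.25-fold on the linear scale. *Map1a* passed without knockdown replicate 3 (difference -0.48, adjusted p = 0.0267). With genes filtered on mean level instead of variation both genes passed (adjusted p = 0.0459 and 0.0385) and *Dclk1* just missed the threshold (adjusted p = 0.0501).

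*Mapt*, the gene of tau, and *Map2* did not pass the test. *Mapt* had log2 values of 10.63, 10.32 and 10.44 in controls and 10.10, 10.08 and 10.41 in knockdowns. Knockdown replicate 3 lay among the controls, while the other knockdown arrays lay below them. The difference was -0.27 (95% interval -0.55 to 0.02, limma, adjusted p = 0.214). *Map2* had 10.51, 10.15 and 10.20 in controls and 9.96, 10.06 and 10.52 in knockdowns, so that the highest value of all was on a knockdown array. Its difference was -0.11 (95% interval -0.44 to 0.22, adjusted p = 0.675), and leaving out single arrays moved it between -0.28, without knockdown replicate 3, and 0.00.

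The stathmin genes differed little between the groups. *Stmn2* (also known as SCG10, a stathmin of growth cones) had log2 values of 13.30, 13.13 and 13.23 in controls and 12.99, 12.99 and 13.23 in knockdowns. *Stmn3*, which encodes a related neuronal stathmin, had 12.66, 12.71 and 12.96 in controls and 12.66, 12.60 and 12.68 in knockdowns. The groups overlapped in both. The differences were -0.15 (95% interval -0.41 to 0.11, limma, adjusted p = 0.439) and -0.13 (-0.35 to 0.08, adjusted p = 0.513 in the fit to all genes). A second cluster of *Stmn3* stood at 5.93 in controls and 5.95 in knockdowns, within the range of the olfactory receptors, with a difference of 0.02. *Gap43* had 11.25, 11.40 and 11.22 in controls and 11.23, 11.06 and 11.05 in knockdowns, which overlapped by knockdown replicate 1 alone, and a difference of -0.18 (95% interval -0.38 to 0.03, adjusted p = 0.346 in the fit to all genes).

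**Figure D2:**
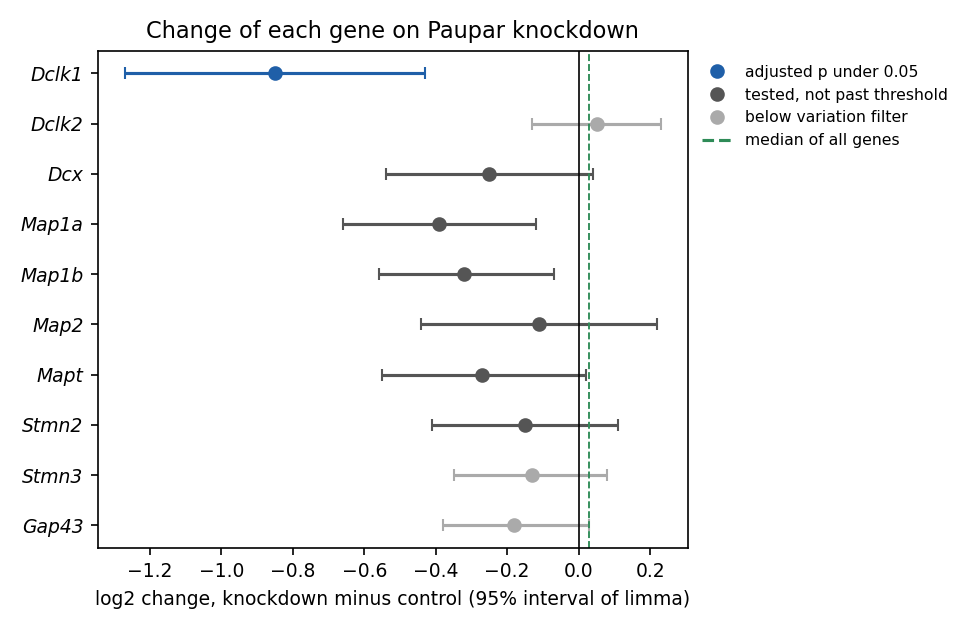
Log2 change (x axis, knockdown minus control) of each gene with its 95% interval from limma, n = 3 per group. Blue marks an adjusted p under 0.05, dark grey genes tested without passing, light grey genes below the variation filter, and the dashed line the median of all genes (0.03). The intervals of *Dclk1*, *Map1a* and *Map1b* lie below 0, and only *Dclk1* passed after adjustment.

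The members differed in which arrays of a group stood highest. In *Dclk1*, *Map1a*, *Map2*, *Mapt* and *Stmn2*, control replicate 1 was the highest control and knockdown replicate 3 the highest knockdown. That pattern held for 5 of the 10 members and for 17.7% of all genes. In *Dcx*, *Dclk2*, *Map1b* and *Gap43*, 4 of the 10, control replicate 2 and knockdown replicate 1 were the highest instead, as in 12.7% of all genes. In *Stmn3* they were control replicate 3 and knockdown replicate 3. Averaged over the 10 genes, the knockdown arrays lay at -0.28, -0.36 and -0.14 relative to the control mean, and the controls at 0.07, -0.03 and -0.04. Pearson's r with *Dclk1* over the 6 arrays was 0.97 for *Mapt*, 0.95 for *Map1a*, 0.93 for *Stmn2*, 0.76 for *Map1b* and 0.75 for *Map2*, between 0.34 and 0.44 for *Dcx*, *Stmn3* and *Gap43*, and -0.65 for *Dclk2*. These values are descriptions: the arrays fall into 2 groups of 3, so each r mixes the difference between groups with the spread within them.

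Of 9129 named genes that passed the variation filter, clone and model numbers left out, the 5 with a profile most like that of *Dclk1* had r between 0.996 and 0.999 over the 6 arrays. They were *Jph4*, a junctophilin of excitable cells, *Man2a2*, a Golgi mannosidase, *Ano8*, an anoctamin, *Cacna1g*, a T-type calcium channel, and *Hps1*, a protein of lysosome-related organelle formation. *Jph4* had log2 values of 9.81, 9.36 and 9.39 in controls and 8.83, 8.74 and 9.28 in knockdowns and fell (difference -0.57, limma, adjusted p = 0.0454). The other 4 had differences between -0.42 and -0.32 and did not pass. All 5 shared with *Dclk1* the high value on control replicate 1 and on knockdown replicate 3. This follows from how they were chosen, and 17.7% of all genes were highest on those arrays of each group.

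**Figure D3:**
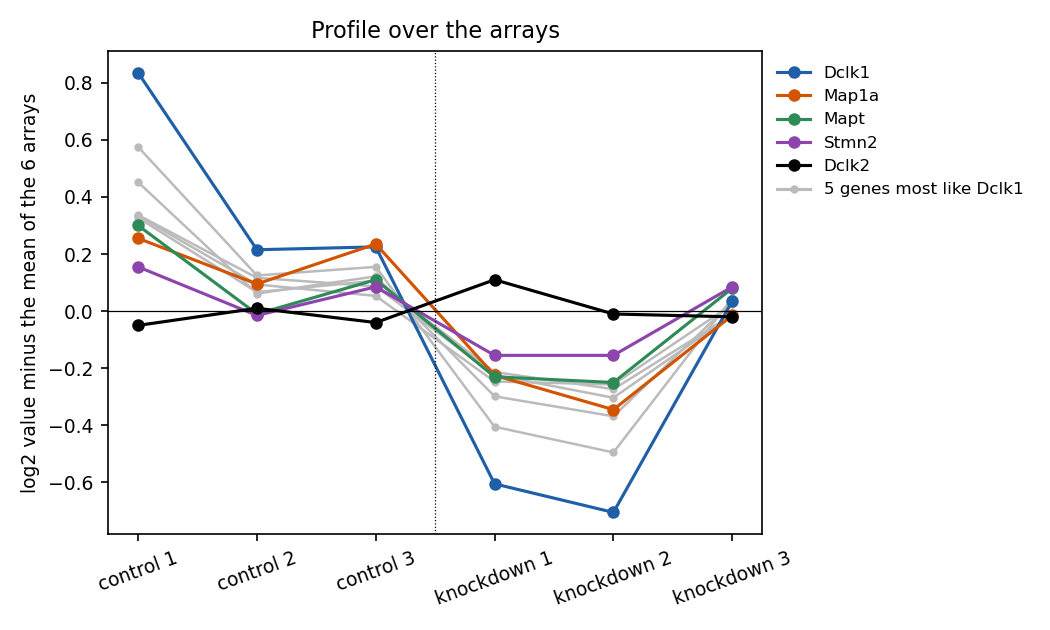
Log2 value minus the mean of the 6 arrays (y axis) on each array (x axis) for *Dclk1*, *Map1a*, *Mapt*, *Stmn2* and *Dclk2*, and in grey for the 5 genes most like *Dclk1*. Lines only join the points of a gene, and the grey genes were chosen for their likeness to *Dclk1*. All but *Dclk2* stand highest on control replicate 1 among the controls and on knockdown replicate 3 among the knockdowns, with the widest swing for *Dclk1*; control replicate 1 and control replicate 3 are close for *Map1a*.

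Further genes that act on microtubules or in the growth cone were taken from 9 lists of 126 genes, 122 of them measured. Of these, 60 passed the variation filter, 6 fell and 2 rose, and the median change over the 122 was 0.00. A list of 23 genes held kinases that phosphorylate MAPs or stathmins, and the Cdk5 activators *Cdk5r1* and *Cdk5r2*. Of these, 12 passed the filter, of which 4 fell and none rose, beside 5.16% and 2.39% of all genes tested, and no test of the list was made. The falls were *Camk2a* from 9.37 ± 0.29 to 8.68 ± 0.29, *Camk2d* from 11.13 ± 0.15 to 10.49 ± 0.22, *Camk4* from 9.23 ± 0.09 to 8.80 ± 0.14 and *Uhmk1* from 11.20 ± 0.02 to 10.80 ± 0.01 (means and SD of 3 log2 values). Their limma adjusted p were 0.0264, 0.0152, 0.0467 and 0.0435. *Camk2a* and *Camk2d* encode subunits of calcium/calmodulin-dependent kinase II, *Camk4* a related kinase, and *Uhmk1* a kinase of stathmin. The median of this list was -0.01, and its genes that did not pass differed by between -0.30 (*Mapk10*) and 0.30 (*Gsk3a*, adjusted p = 0.116, all knockdown arrays above the controls).

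Among the other doublecortin domain genes, 4 were measured and 2 passed the filter. Of these, *Dcdc2a* fell from 8.07 ± 0.23 to 7.41 ± 0.03 (limma, adjusted p = 0.0116). The others, *Rp1*, *Dclk3* and *Rp1l1*, differed by -0.09, 0.06 and 0.19. Of 23 genes of enzymes that modify or sever microtubules, or of their partners, 12 passed the filter. The tubulin polyglutamylase gene *Ttll7* fell from 9.17 ± 0.15 to 8.57 ± 0.18 (adjusted p = 0.0176) and the fidgetin-like gene *Fignl1*, which also acts in DNA repair, rose from 10.14 ± 0.34 to 10.75 ± 0.11 (adjusted p = 0.0304). Of 12 lissencephaly and dynein genes, 6 passed the filter, and *Nde1*, which binds LIS1 and acts in dividing neural progenitors, rose from 9.66 ± 0.13 to 10.21 ± 0.06 (adjusted p = 0.0157). Of all genes tested, 5.16% fell and 2.39% rose, and these counts are too small for a statement about the lists. Leaving out single arrays ended the call of each of these 8 genes at least once. That of *Dcdc2a* was lost without control replicate 1 or knockdown replicate 2. The call of *Nde1* needed control replicate 1 and both of knockdown replicates 1 and 2. Those of *Camk2a*, *Camk2d*, *Ttll7* and *Fignl1* needed control replicates 1 and 3 and knockdown replicates 1 and 2, and those of *Camk4* and *Uhmk1* needed every array except knockdown replicate 3.

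No gene passed among 12 other structural MAPs (4 of them kept by the variation filter), 2 other stathmins (1 kept) and 14 growth cone proteins (6 kept). The same held for 20 proteins that bind microtubule ends (10 kept) and 12 tubulin chaperones and cofactors (7 kept). Of all genes tested, 5.16% fell and 2.39% rose. The lack of a call among so few tested genes is therefore no result about these lists. *Stmn1*, the stathmin of dividing cells, stood at 13.14 ± 0.15 in controls and 13.28 ± 0.13 in knockdowns, and *Stmn4* at 9.19 and 9.27. The structural MAP genes *Map4* and *Map7d2* differed by 0.12 and 0.09, the growth cone genes *Dpysl3* and *Crmp1* by -0.09 and 0.02, the end-binding *Mapre2* and *Ckap5* by 0.00 and 0.03, and the chaperones *Pfdn2* and *Tbca* by 0.01 and 0.13. Medians of these 5 lists lay between -0.03 and 0.11. Single genes ranged from -0.29 to 0.21 in the structural MAP list and from -0.35 to 0.13 in the growth cone list. They ranged from -0.39 to 0.39 in the end-binding list and from -0.24 to 0.13 in the chaperone list. Falls of the size of those of *Map1a* and *Map1b* thus occurred in the growth cone and end-binding lists too. Of the 17 neuroblastoma markers measured, 11 passed the filter, of which *Dbh*, *Th* and *Chgb* fell (by 1.09, 0.68 and 0.45 on the log2 scale) and none rose, beside 5.16% and 2.39% of all genes tested. The markers that did not pass differed by between -0.34 (*Chga*, adjusted p = 0.0889) and 0.24 (*Gata2*, adjusted p = 0.197). Of these falls that of *Dbh* passed whichever array was left out. The call of *Th* needed control replicates 1 and 3 and knockdown replicate 1, and that of *Chgb* every array except knockdown replicate 3.

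**Figure D4:**
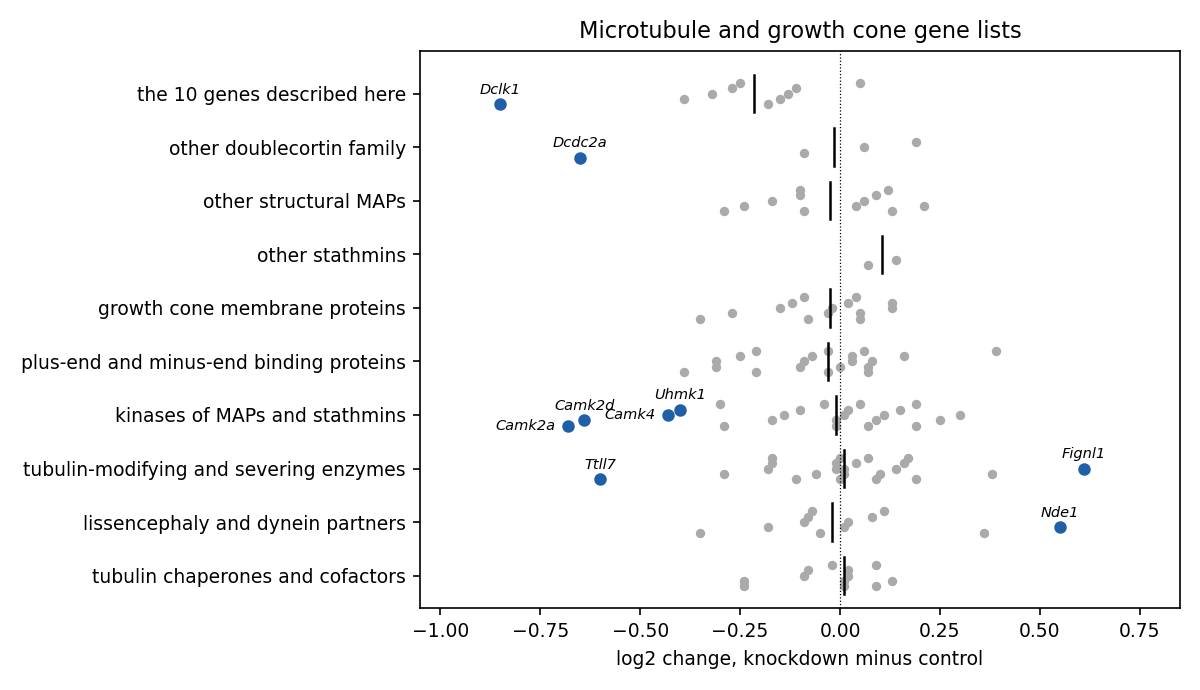
Log2 change (x axis, knockdown minus control) of each measured gene of the 10 genes described here and of 9 further lists (y axis). Blue points passed the test, grey points did not, and the black bars are list medians: -0.21 for the 10 genes and between -0.03 and 0.11 for the others.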

How the data were processed

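RNA of 6 cultures was hybridised to Mouse Gene 1.0 ST arrays (Affymetrix). Background correction, quantile normalisation and summary of the probes by RMA were done by the authors (no version stated). The deposited values are log2 expression values of 35556 transcript clusters. A genome build is not given in the sources used here. Precision is limited by the number of arrays.

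The platform annotation gave 21789 clusters 1 gene symbol, 1621 several and 12146 none. The cluster with the highest mean was kept per gene (999 genes had several). As in the study's methods, genes of low variation were removed (here the lower 50% by interquartile range), and groups were compared by a linear model with moderated variances (limma 3.58.1 under R 4.3.3), two-sided, with Benjamini-Hochberg adjustment at 0.05. The steps were tested on simulated data. Members and gene lists were chosen with earlier results of these data known. Named genes were all 10 members, up to 4 changed genes of each list (otherwise up to 2 with the highest mean), and the 5 genes most like *Dclk1*. *Mapk10*, *Gsk3a*, *Rp1*, *Dclk3*, *Rp1l1*, *Nefl*, *Nefm*, *Chga*, *Gata2* and *Pdgfrb* were added after their values were seen. Alternatives covered the filter, the cluster choice, centring, array weights, the prior variance, the replicate number as a block and leaving out each array.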

Additional observations from a re-analysis of the deposited data

How the results depend on the processing

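Every knockdown value of *Dclk1* lay below every control value, so the alternatives could not readily reverse the difference. Its fall kept its direction under each of them. Its adjusted p (limma) was 0.0656 without a variation filter, 0.0501 with a filter on mean level and 0.194 with all transcript clusters kept (difference -0.85 in each), and between 7.99e-06 and 0.0337 under the other alternatives that kept all arrays. With 1 array left out the difference ranged from -1.08 to -0.65. The members that passed numbered 0 without a filter or with all clusters kept (unadjusted limma p under 0.05 for 4 and 3 members). They numbered 2 with a filter on mean level (*Map1a* and *Map1b*). A trend together with a robust fit of the prior variance also gave 2 (*Dclk1* and *Map1b*). Array weights gave 5 (*Dclk1*, *Map1a*, *Map1b*, *Mapt* and *Stmn2*), and leaving out 1 array gave between 0 and 2. Over all genes, 0 passed with all clusters kept (3015 unadjusted), 5561 with array weights (2665 down, 2896 up), and between 112 and 1239 with 1 array left out, lowest without control replicate 3 and highest without knockdown replicate 3. *Map2* ranged from -0.28 to 0.00 with 1 array left out and changed sign, at 0.00, without control replicate 1 or knockdown replicate 1, and *Stmn3* had 0.02 in its other cluster. The cause of these shifts was not tested. Of the listed genes, none passed with all clusters kept, *Camk2a* and *Fignl1* missed without a filter, *Dcdc2a* fell below the filter on mean level, *Uhmk1* missed with a variance filter, and *Uhmk1* and *Camk4* missed with arrays centred. Running the alternatives on these listed genes was decided after the data were seen.

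Replicate numbers gave no sign of pairing the arrays: deviations from the group means correlated at -0.34, 0.10 and 0.08 within numbers. Across numbers, r was 0.44 for control replicate 2 with knockdown replicate 1 and 0.26 for control replicate 1 with knockdown replicate 3. It was -0.37 for control replicate 2 with knockdown replicate 3. The deviations within a group cancel out for each gene, so these values are tied to each other, and positive and negative ones arise together. Whether arrays of different numbers shared any of their spread was not tested. With the replicate number as a block, 680 genes passed and *Dclk1* had an adjusted p of 0.00776 (difference -0.85), while *Uhmk1* and *Camk4* missed the threshold (0.0697 and 0.0552).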
